A study of Schizosaccharomyces pombe with 6 samples.

Results

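Arp5-3HA was mapped by ChIP-seq in *S. pombe*, and the sites described here are the 2033 regions that had a peak in both replicates, of 5755 regions found in either replicate. They were obtained by merging the peaks of both replicates where these overlapped by at least 1 bp and keeping the merged regions with a peak from each. Both Arp5-3HA samples came from the strain labelled Hap2-GFP Arp5-3HA, grown in rich medium (YES), with chromatin sheared by sonication and precipitated with anti-HA. The cells thus carried a GFP tag on Hap2 as well as the HA tag on Arp5. Nothing in the labels tells if the replicates were grown as separate cultures, and their spread may be technical only. The series holds 6 samples, of which these are 2. The input samples and an untagged strain were not analysed here, so signal that an antibody gives at a locus without the tag cannot be told apart from Arp5.

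Arp5 is an actin-related protein and a conserved subunit of the Ino80 complex (Ino80C), in which it forms a module with Ies6. Ino80C is an ATP-dependent chromatin remodeler that slides and spaces nucleosomes and has been linked to the exchange of histones. Genes transcribed by RNA polymerase II are the main part of the compact *S. pombe* genome, where neighbouring genes often converge and their transcripts overlap at the 3′ ends.

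The position of each site was read from its summit, the point that the peak caller marks as the highest of the peak. For a region the summit was that of the replicate in which its best peak ranked higher by score. The summit with 50 bp to each side is shown for the 6 highest regions whose summit lay in the coding sequence of a single gene, because these mark the positions to which the following values refer. The sequences are from the reference ASM294v3 (RefSeq), on the coding strand, and capitals mark the 10 bp step that holds the summit.
pgk1, chrII:4158216-4158316, - strand: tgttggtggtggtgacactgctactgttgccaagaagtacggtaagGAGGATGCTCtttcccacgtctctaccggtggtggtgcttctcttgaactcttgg
atd1, chrI:4454106-4454206, - strand: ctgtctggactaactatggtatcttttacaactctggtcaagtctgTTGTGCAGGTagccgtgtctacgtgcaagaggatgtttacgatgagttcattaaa
pma1, chrI:3872186-3872286, - strand: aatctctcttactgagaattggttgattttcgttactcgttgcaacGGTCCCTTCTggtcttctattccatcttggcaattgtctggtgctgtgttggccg
hsp90, chrI:3888876-3888976, - strand: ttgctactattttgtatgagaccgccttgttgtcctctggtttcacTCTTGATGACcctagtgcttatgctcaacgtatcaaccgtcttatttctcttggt
eno101, chrII:2202136-2202236, + strand: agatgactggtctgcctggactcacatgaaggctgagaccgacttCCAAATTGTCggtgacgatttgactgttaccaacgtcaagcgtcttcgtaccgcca
pfl2, chrI:3989696-3989796, - strand: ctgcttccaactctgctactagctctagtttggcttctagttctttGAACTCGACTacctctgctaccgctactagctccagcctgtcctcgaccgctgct

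In *pgk1*, the gene of phosphoglycerate kinase in glycolysis, the summit was at 72.9% of the gene length, and the sequence shown held 52.5% GC, against 52.6% from start to stop codon. The other windows were at 63.1% of *atd1* (aldehyde dehydrogenase), 86.7% of *pma1* (the plasma membrane proton ATPase), 85.7% of *hsp90* (a chaperone), 68.0% of *eno101* (enolase) and 38.0% of *pfl2* (a cell surface protein). Their GC content was 42.6%, 45.5%, 42.6%, 51.5% and 52.5%. In 5 of these 6 genes the summit shown thus lay beyond the middle of the gene. The side differed between replicates in *eno101*, where the replicate 1 summit was at 46.0%, and in *pfl2*, where it was at 56.5%.

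Replicate 1 had 4206 peaks on chromosomes I, II and III and replicate 2 had 4277. The median peak was 230 bp in both lists, and 4.14% and 4.35% of peaks were longer than 1000 bp. Of the peaks, 2388 (56.8%, 95% Wilson interval 55.3% to 58.3%) in replicate 1 and 2373 (55.5%, 54.0% to 57.0%) in replicate 2 fell in a region shared by both. The intervals cover counting error only. Sharing increased with the score that the authors gave each peak, a whole number on a scale that is not stated and that was used only as a rank within its list. In replicate 1 the share of peaks in a common region was 36.0% in the lowest 25% of scores, 48.2% and 61.5% in the next 2 classes and 80.4% in the highest 25%. In replicate 2 it was 37.1%, 50.3%, 58.7% and 76.95%. A low-scoring Arp5 peak was therefore more often seen in a single replicate than in both.

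The shared regions had a median width of 430 bp (quartiles 300 and 730 bp) and covered 10.4% of the 3 chromosomes. Regions longer than 1000 bp numbered 306 (15.1%), and they held 42.0% of the covered sequence. In 1564 regions (76.9%) a single peak of each replicate overlapped. The summits of the 2 replicates lay a median of 110 bp apart, and in 1312 regions (64.5%) they were within 150 bp. In 121 regions (5.95%) the best overlap was 50 bp or less. The 3722 regions of a single replicate had a median width of 190 bp, and 538 of them (14.5%) lay within 100 bp of a peak of the other replicate. Over the shared regions the scores of the replicates had a Spearman rho of 0.50, which was 0.35 for regions up to 1000 bp and 0.63 for longer ones. The rank of a region is given below as the lower of its percentiles in the 2 lists, and it increased with width (rho 0.52 over 2033 regions, which share the same 2 libraries).

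The summits lay inside protein-coding genes, and within them in the coding sequence. Of the 2033 summits, 1773 (87.2%, Wilson interval 85.7% to 88.6%) were inside at least 1 coding gene, counted with its UTRs, against 76.7% of the sequence. In the single lists the share was 90.4% and 89.3%. A single gene held 1613 summits, and the positions below are those of these single-gene summits. Of them, 1494 (92.6%) were in coding sequence, which makes up 74.2% of single-gene sequence. The 5′ UTR held 9 (0.558%), against 8.13% of sequence, and introns held 12 (0.744%), against 4.41%. The 3′ UTR held 98 (6.08%), against 13.2% of sequence. In the replicate lists the 5′ UTR share was 1.21% and 1.15% and the 3′ UTR share 6.03% and 6.73%, so both UTRs held fewer summits than their length in each list.

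Along the gene the summits were sparse at the start, most frequent at 70% to 80% of the gene length and sparse again at the 3′ end. Each gene was divided into 10 equal segments from start to 3′ end. Segment 1 held 30 summits (1.86%), against 10.9% of single-gene sequence, which is 0.171-fold. Segment 8 held 16.4% of summits, 1.73-fold its sequence, and segment 10 held 6.14%, 0.715-fold. The median summit was at 60.8% of the gene length, 1330 bp from the start and 892 bp from the 3′ end. The 3′ part of the gene, beyond 50% of its length, held 1025 of 1613 summits (63.5%, Wilson interval 61.2% to 65.9%), against 47.1% of the sequence (1.35-fold). The share was 60.1% in the replicate 1 list and 59.7% in the replicate 2 list. It was 64.1%, 63.6% and 61.7% on chromosomes I, II and III, and 62.8% and 64.3% for genes on the + and the - strand. Where the summits of both replicates were within 150 bp it was 63.8% of 984. The range over these subsets was smaller than the distance of each from the share of sequence.

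**Figure D1:**
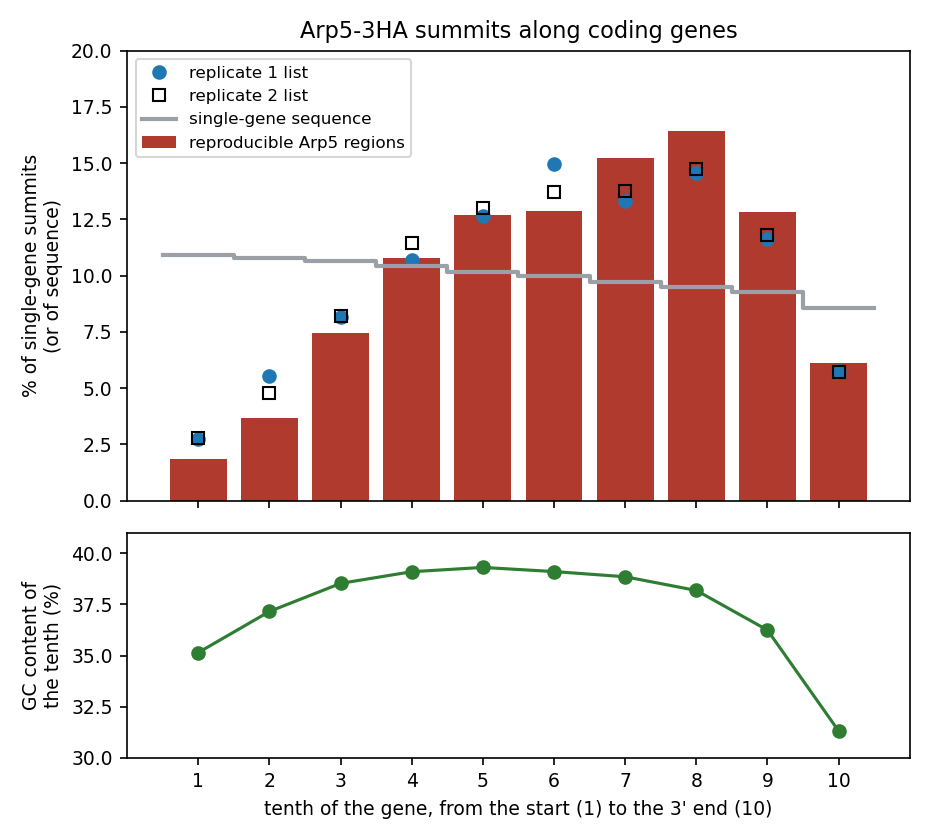
Share of single-gene summits in each of 10 equal segments of the gene, from start to 3′ end, for the 1613 reproducible Arp5-3HA regions (bars), the peaks of replicate 1 (circles) and replicate 2 (squares), with the share of single-gene sequence as a line, and below it the GC content of each segment. The bars are below the line in segments 1 to 3 and 10, and highest in segment 8 (16.4%), while GC content is highest in the middle of the gene (39.3%) and lowest at the 3′ end (31.3%).

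Coverage by the regions gave the same shape without use of the summits. Regions covered 2.88% of the sequence of segment 1, 18.2% of segment 8 and 11.3% of segment 10. In 1423 of the 1613 single-gene regions (88.2%) both replicates placed their summit on the same side of the middle of the gene, and 940 of these 1423 (66.1%) had both in the 3′ part. For regions up to 300 bp the sides matched in 94.9%, and for regions over 1000 bp in 73.8%, with a median of 335 bp between the summits. The position of a summit in a wide region was thus less certain than in a narrow one.

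Counted in base pairs, the low density at the start extended well into the gene. In the first 100 bp of the gene there were 3.37 summits per 100 kb of single-gene sequence, against 18.1 over all such sequence. The density was 11.4 at 400 to 500 bp, 20.6 at 800 to 900 bp and 30.2 at 1600 to 1700 bp from the start. From the 3′ end upstream it was 8.81 in the last 100 bp, 17.2 in the next and 30.7 at 200 to 300 bp, and between 11.5 and 28.6 further upstream. The last 200 bp of genes held 103 summits (6.39%), against 8.71% of sequence, and the first 200 bp held 41 (2.54%), against 10.7%. Within 500 bp upstream of the 3′ end there were 442 summits (27.4%, Wilson interval 25.3% to 29.6%), against 22.9% of sequence (1.20-fold). In the single lists this share was 23.6% and 24.1%, so the excess at the 3′ end was smaller there.

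**Figure D2:**
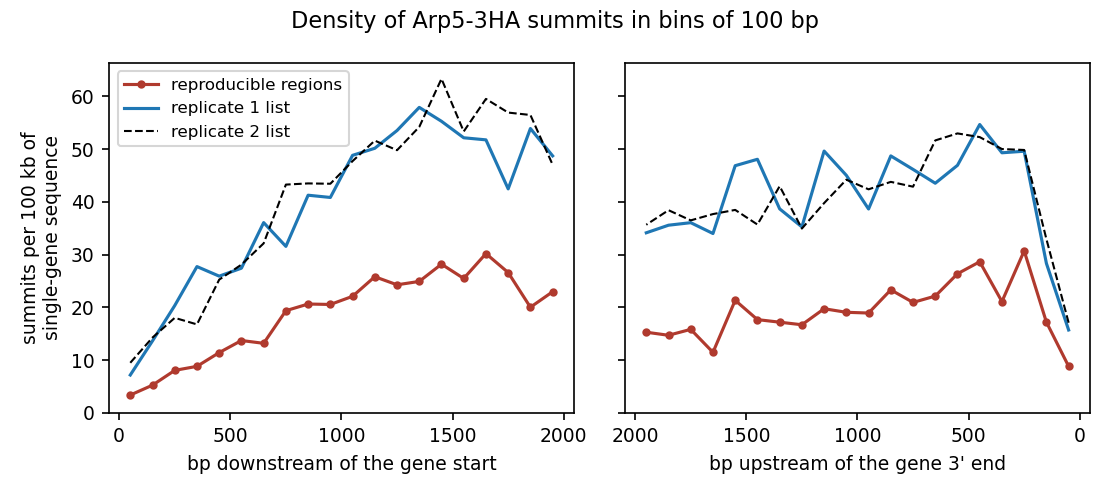
Summits per 100 kb of single-gene sequence in bins of 100 bp, downstream of the gene start (left) and upstream of the 3′ end (right, with the 3′ end at the right edge), for reproducible regions and for each replicate list. All 3 lines are lowest at the gene ends, and the line of the regions runs from 3.37 in the first bin at the start and from 8.81 in the last bin at the 3′ end to peaks of about 30 (30.2 and 30.7).

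Sequence composition moved with these values. Genes with a summit had a median GC content of 40.9% (quartiles 38.8% and 43.5%), against 38.2% (36.4% and 40.1%) for genes without, counted from start to stop codon. In coding sequence the summit with 50 bp to each side had a median of 44.6% GC, against 41.5% for the gene as a whole, and it was richer than its gene at 1066 of 1494 summits (71.4%). In the replicate lists this share was 67.1% and 70.1%. The mean GC content was 43.9% at the summit, 37.5% at 1000 bp upstream and 36.6% at 1000 bp downstream. When single-gene sequence was classed by the GC content of each position with 50 bp to each side, the density of summits was 3.61 per 100 kb below 35% GC, 9.30 at 35 to 40%, 26.5 at 40 to 45%, 61.7 at 45 to 50% and 105.9 at 50% or more. Between the 10 segments of the gene the density ran from 3.09 in segment 1 to 31.3 in segment 8, a smaller range. The GC classes are of unequal size, with 35.7% of the sequence in the lowest and 2.29% in the highest. Both ranges are therefore not of like classes.

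Within each GC class the 3′ part of the gene still had the higher density. Below 35% GC it was 5.64 summits per 100 kb in the 3′ part and 1.53 in the 5′ part (3.68-fold, 115 summits). At 35 to 40% it was 15.5 and 4.21 (3.68-fold), at 40 to 45% 38.5 and 16.6 (2.32-fold), at 45 to 50% 76.7 and 49.6 (1.55-fold), and at 50% or more 135.1 and 84.1 (1.61-fold). The density in the first 500 bp of the gene was 1.03, 2.33, 9.16, 30.2 and 102.0 in these classes, against 4.75, 11.7, 31.5, 70.6 and 107.2 in the rest of the gene. At 50% GC or more the start of the gene therefore had almost the density of the rest. These classes were chosen after the values were seen. The part of GC content in the positions of the summits was not tested.

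**Figure D3:**
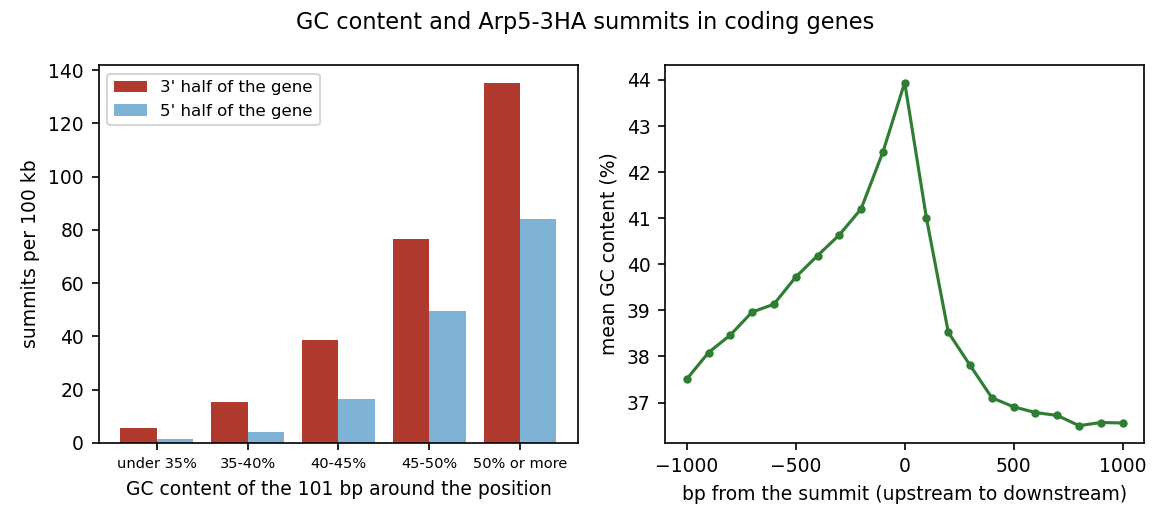
Left, summits per 100 kb in the 3′ part (beyond 50% of the length, red) and the 5′ part (blue) of coding genes, by the GC content of each position with 50 bp to each side, with the 3′ part higher in all 5 classes and both parts higher at higher GC content. Right, mean GC content in steps of 100 bp around the 1613 single-gene summits, from upstream to downstream on the coding strand, which is highest at the summit (43.9%) and drops faster on the downstream side.

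The density near the 3′ end differed with the orientation of the next gene. Of 2786 genes whose downstream neighbour is convergent, 892 (32.02%) had a summit, and of 2322 genes with a tandem neighbour 534 (23.0%). These counts include summits in the overlap of 2 coding genes, each counted for both, which raises the share where convergent genes overlap. Single-gene summits alone numbered 20.4 per 100 kb in convergent genes and 15.9 in tandem genes. Within convergent genes 33.7% of 915 summits lay within 500 bp of the 3′ end, against 21.1% of the sequence (1.60-fold), and 67.4% lay in the 3′ part, against 44.5% (1.51-fold). Within tandem genes 19.2% of 698 summits were that close to the 3′ end, against 24.8% of sequence (0.774-fold), and 58.5% lay in the 3′ part, against 49.7% (1.18-fold). The density near the 3′ end was 32.5 per 100 kb in convergent genes and 12.3 in tandem genes. When genes with another coding gene within 500 bp of the 3′ end were left out, the last 500 bp held 27.9% of 319 summits, against 27.5% of sequence, so no excess near the 3′ end was seen for isolated 3′ ends. The 3′ part still held 58.3% of these summits, against 50.1% of sequence. A further 160 summits lay in the overlap of 2 coding genes. Of these, 85 (53.1%) were in overlaps of 3′ ends, against 49.4% of overlap sequence, and 2 (1.25%) in overlaps of 5′ ends, against 4.71%.

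Of 5113 coding genes, 1426 held the summit of an Arp5 region (27.9%), and this is the share against which the gene groups below are set. The single lists had a summit in 2356 and 2415 genes. Genes with a summit were longer, with a median of 2238.5 bp, against 1596 bp for genes without (1.40-fold). The share of genes with a summit was 15.8% below 1 kb, 15.1% at 1 to 1.5 kb, 27.4% at 1.5 to 2 kb, 35.8% at 2 to 3 kb, 45.2% at 3 to 5 kb and 50.3% at 5 kb or longer. Per 100 kb of single-gene sequence, by contrast, the summits numbered 22.9, 12.3, 18.4, 18.8, 19.6 and 17.7 in these classes. Above 1.5 kb the longer genes thus had more region summits without a higher density of them. In the single lists, however, the density was higher in the longer genes. In replicate 1 it was 36.3 at 1.5 to 2 kb, 41.8 at 2 to 3 kb, 44.6 at 3 to 5 kb and 43.3 at 5 kb or longer. In replicate 2 it was 37.9, 41.4, 42.5 and 43.3. The share of summits in the 3′ part was 73.1% in genes of 1 to 1.5 kb, against 48.2% of sequence, and 51.8% in genes of 5 kb or longer, against 45.5%. The median distance from the start was 812 bp in the shorter and 3166 bp in the longer of these classes.

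**Figure D4:**
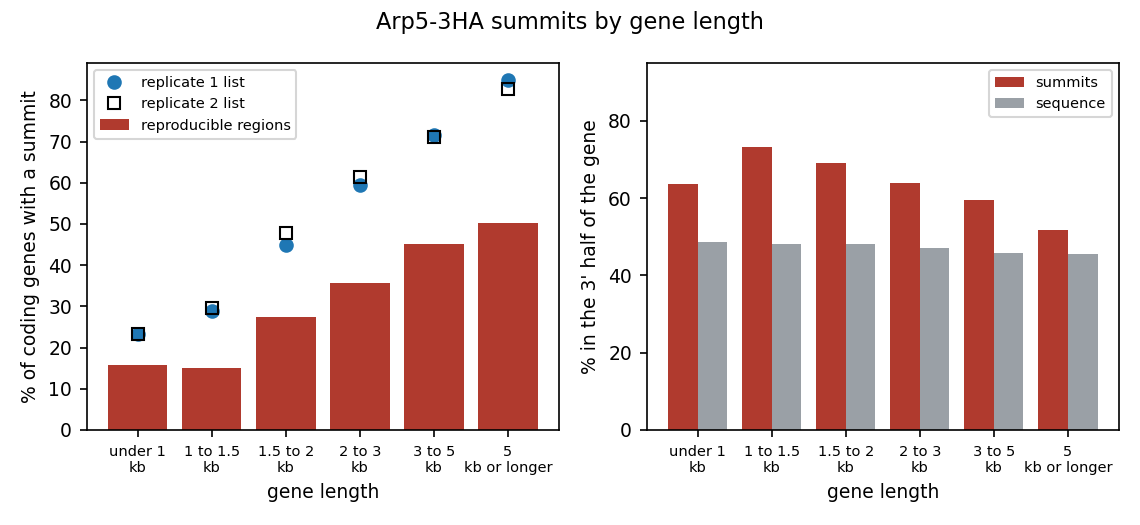
Left, share of coding genes of each length class that held a summit, for reproducible regions (bars) and each replicate list (circles and squares), which runs from 15.8% below 1 kb to 50.3% at 5 kb or longer for the regions. Right, share of single-gene summits in the 3′ part of the gene (red) beside the share of sequence there (grey), with the widest gap at 1 to 1.5 kb and the narrowest at 5 kb or longer.

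The higher density below 1 kb went with ribosomal protein genes, a split made after the values were seen. Of 121 ribosomal protein genes shorter than 1 kb, 80 (66.1%) had a summit, at 101.6 summits per 100 kb. Of the 725 other genes of that length, 54 (7.45%) had one, at 10.1 per 100 kb. Many ribosomal protein genes have a near-identical copy, so reads may have been split or shared between copies. Wide regions were also most frequent in the shortest class, with 6.32 per 100 kb, against 1.99 to 3.04 in the others.

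Most genes with a summit had 1 (1059), while 279 had 2, 54 had 3, 23 had 4 and 11 had more. Neighbouring summits in the same gene lay a median of 770 bp apart (quartiles 539 and 1103 bp, 424 pairs). *glt1* (glutamate synthase, 7545 bp) and *cut6* (acetyl-CoA carboxylase, 7762 bp) had 7 regions each. *pan1* (an actin patch protein), *sec16* (a vesicle coat component) and *ags1* (alpha-glucan synthase of the cell wall) had 6 each. The summits of *glt1* ran from 15.9% to 84.8% of the gene and those of *ags1* from 23.8% to 93.6%, with 5 of 7 and 3 of 6 in the 3′ part. The regions covered 66.0% of *glt1* and 78.1% of *cut6*. Their ranks in *glt1* were between percentiles 7.88 and 62.8, where the rank is the lower of both replicates. Single peaks in them were higher, at percentile 99.5 in replicate 1 for one region, with 36.2 in replicate 2, and at 93.7 in replicate 2 for another, with 62.8 in replicate 1. Long genes did not all have many regions. The longest gene with a summit, *dhc1* (dynein heavy chain, 12591 bp), had 1 region of 530 bp at 44.96% of the gene. *ptr1* (a ubiquitin ligase), *rad3* (the ATR checkpoint kinase) and *mok11* (an alpha-glucan synthase), of 10100, 9446 and 8413 bp, also had 1 each.

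Wide regions with their summit in a single gene reached past the 3′ end more often than past the start. Of the 256 single-gene regions over 1000 bp, 144 (56.3%) reached beyond the 3′ end and 27 (10.5%) upstream of the start, 24 of them both. At the median the region began well inside the gene and ended 244 bp past the 3′ end. The quartiles of its end were -334.5 and 541 bp past the 3′ end, where a negative value lies inside the gene. It covered a median of 64.2% of the gene, and 65 regions covered at least 90%. With genes divided into 3 equal segments, the 5′, middle and 3′ segments held 261, 688 and 664 summits. Their regions were over 1000 bp in 11.1%, 15.6% and 18.1% of cases, and their median rank was at percentile 40.04, 42.1 and 47.2. In replicate 1 the median percentiles were 46.5, 46.5 and 52.2 and in replicate 2 they were 42.1, 47.9 and 53.2. The quartiles of region rank overlapped widely, at 17.5 and 61.7 for the 5′ segment and 23.98 and 70.9 for the 3′ segment.

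The 10 highest regions were all over 1000 bp. At *pgk1* the replicate 1 peak, of 2160 bp, ran from 39 bp upstream of the start to 480 bp past the 3′ end. The replicate 2 peak, of 2320 bp, ran from 89 bp upstream to 590 bp past it, and the summits were 10 bp apart. Over *adh1* (alcohol dehydrogenase) the summits were 580 bp apart, at 92.9% of the gene in replicate 1 and 56.6% in replicate 2. *pma1* had a region of 4850 bp that began 171 bp inside the gene and ended 551 bp past it, with summits at 91.8% and 86.7%. In *hsp90* the replicate 1 summit was at 85.7% of the gene and that of replicate 2 was 122 bp past the 3′ end. At *tdh1*, which encodes glyceraldehyde-3-phosphate dehydrogenase, a region of 2240 bp covered the whole gene, with the replicate 1 summit inside it and the replicate 2 summit beyond the 3′ end, in the long noncoding RNA gene SPNCRNA.1551. *fhn1* (an eisosome protein) had summits at 51.2% and 48.9%. The 6 highest summits of the 3′ segment were those of *pgk1*, *adh1*, *pma1*, *hsp90*, *eno101* and *tef101* (elongation factor EF-1 alpha, with summits at 82.0% and 87.1%).

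**Figure D5:**
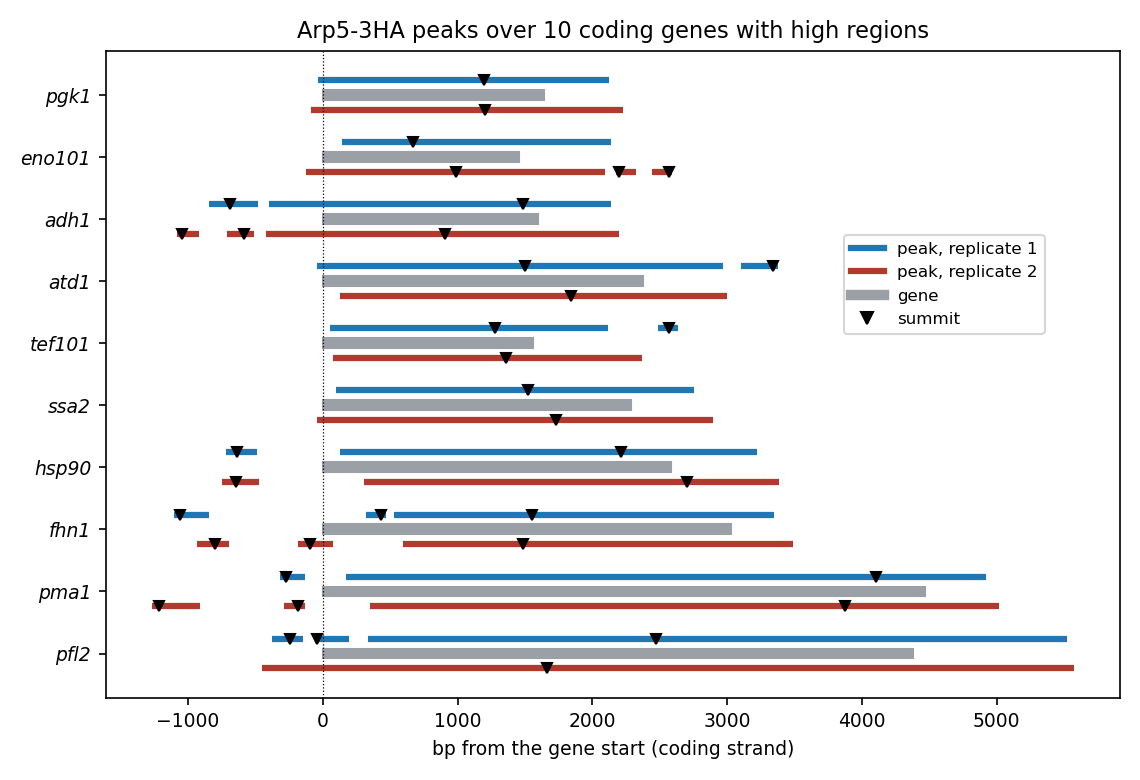
Peaks of replicate 1 (blue, above) and replicate 2 (red, below) over 10 coding genes with high regions, drawn from the gene start on the coding strand in base pairs, with the gene as a grey bar and summits as triangles. In all 10 genes the long peak of both replicates ends beyond the 3′ end, by 480 and 590 bp for *pgk1* and 451 and 551 bp for *pma1* in replicates 1 and 2, and summits of both replicates do not always coincide.

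Among the highest regions the summits of the replicates often differed in place. This held for the 6 highest regions of the 5′ segment and also for those of the other segments. In *met26* (homocysteine methyltransferase) the summits were at 55.1% in replicate 1 and 26.6% in replicate 2. In *psu1* (a beta-glucosidase family protein) they were at 30.8% and 85.4%, and in *pil1* (an eisosome protein) at 32.5% and 76.2%. *tef3* (elongation factor 3) had them at 31.2% and 11.5%. Only *cdc48*, an AAA ATPase, of the 6 highest 5′ regions had summits within 150 bp, at 31.6% and 32.7%. *fib1* (fibrillarin) had the highest score of the replicate 2 list (333), while its best replicate 1 peak was at percentile 93.5, with summits at 14.1% and 53.1%. In 4 of these 6 genes the summit of the other replicate was outside the 5′ segment. Among the 6 highest of the middle segment it was outside for *atd1* (77.4%), *ssa2* (75.7%), *tef102* (93.2%) and *fba1* (77.1%). It was inside for *fhn1* and *pfl2*. In the 3′ segment the other summit was outside for *adh1* (56.6%), *eno101* (46.0%) and *hsp90* (past the 3′ end), and inside for *pgk1*, *pma1* and *tef101*.

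Genes of glycolysis and fermentation, chaperones and translation elongation factors held summits more often than the 27.9% of all coding genes. These lists were chosen with earlier results of these data known. Transcription was not measured here, and its part in these shares was not tested. Of 18 genes of glycolysis and fermentation, 15 (83.3%) had one, and so had 10 of 11 chaperone genes (90.9%) and 5 of 7 genes of translation elongation factors (71.4%). In the glycolysis group *pdc101* (pyruvate decarboxylase), *pyk1* (pyruvate kinase) and *gpm1* (phosphoglycerate mutase) had regions at percentiles 98.8, 99.0 and 99.3 that covered 100%, 94.1% and 88.1% of the gene. The others included *hxk1* (hexokinase), at percentile 13.2 and with 11.6% of the gene covered. *eno102* and *adh4* had no region summit, and *tdh1* is described above. The chaperone group included *ssa2* (Hsp70, percentile 99.5, summits at 66.6% and 75.7%), *bip1* (the Hsp70 of the endoplasmic reticulum, percentile 97.2) and *mcp60* (mitochondrial Hsp60, percentile 99.1). *hsp16*, a small heat shock protein, had no peak in either list. The median summit was at 56.8% of the gene for glycolysis, 60.9% for chaperones and 53.3% for elongation factors, against 60.8% for all. *tef103* and *eft202* had no region summit, but regions covered 100% and 99.2% of these genes. *tef101*, *tef102* and *tef103*, and *eft201* and *eft202*, are near-identical copies, and their values are uncertain because reads may be shared.

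Cell wall and cell surface genes had a summit in 10 of 15 cases (66.7%), and a list of 12 mostly very long genes in 8 (66.7%). Both groups are of long genes, with a median of 4214 and 7523 bp. *gas1* (a glucanosyltransferase) had the second highest region of the first group after *pfl2*, of 3000 bp with a summit at 83.5%. *fas1* and *fas2*, the subunits of fatty acid synthase, had 5 regions each, which covered 85.2% of *fas1*. Of 24 genes for RNA polymerase II subunits and elongation factors, 12 had a summit. *rpb1*, the largest subunit, had 3 regions, *spt5* (an elongation factor) 3 and *spt16* (a FACT subunit) 2, the best of which was at percentile 92.8. The 8 genes of *rpb4*, *rpb5*, *rpb6*, *rpb8*, *rpb9*, *rpb10*, *rpb11* and *rpc10*, which encode small subunits and are at most 1288 bp long, had no peak summit in either list. The small subunit gene *rpb7*, of 1050 bp, did have a region, of 460 bp at percentile 53.2, over 43.8% of the gene.

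Plasma membrane transport and eisosome genes had a summit in 6 of 14 cases (42.9%). Their median length was 2387.5 bp, and 35.8% of all coding genes of 2 to 3 kb had a summit. Of the hexose transporter genes, *ght5* had 3 regions, the best at percentile 87.5, and *ght2* had 1 of 1910 bp at percentile 90.2, over 84.3% of the gene. *ght8* had no region summit, but both lists had a peak summit in it and regions covered 85.1% of it. *ght6* had a peak summit in replicate 1 alone, and *ght1*, *ght3*, *ght4* and *ght7* had none in either list. Of 11 histone genes, 5 (45.5%) had a summit, among them *hht2* (histone H3) and *hhf2* (histone H4) at percentiles 92.3 and 91.4. Histone genes are short, so a region can extend over a neighbouring gene. Several of them have near-identical copies, between which reads can be shared. The core histone genes without a region summit were also under regions. These covered 66.3% of *hht1*, 99.3% of *hht3*, 85.6% of *hhf1* and 93.8% of *htb1* (histone H2B). In *pht1* (H2A.Z) 0% of the gene was covered, and *cnp1*, which encodes CENP-A, had no peak summit and 0% of the gene covered. Of 27 genes for Swr1, RSC, SWI/SNF and CHD remodelers, with a median length of 2728 bp, 10 (37.0%) had a summit. That is near the 35.8% of all coding genes of 2 to 3 kb. Their best region was in *msc1*, at percentile 52.2.

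Ino80C subunit genes had a summit in 5 of 16 cases (31.3%), near the share of all coding genes. *act1* (actin) had a region of 2320 bp over 98.8% of the gene, at percentile 92.9. *arp5* itself had a region of 1410 bp over 65.1% of the gene at percentile 93.5, with the summit at 38.2%. *hap2*, of 470 bp, had one of 870 bp with the summit 76 bp from the 3′ end, at percentile 92.3. It covered only 23.6% of *hap2* and lay mostly outside the gene. These 2 genes carry the tags in this strain, and whether the regions there go with the tagged loci was not tested. The regions in *rvb1* (an AAA ATPase) and *nht1* (an HMG-box protein) were of 290 and 270 bp at percentiles 1.10 and 6.87. *arp8*, *ies4*, *tfg3* and *iec3* had no peak summit in either list. Of 26 genes for kinetochore proteins and CENP-A loading, 3 (11.5%) had a summit, below the share of all coding genes. These were *mal2*, *fta3* and *spc24*, with 4 summits in all, each in the 3′ part.

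Outside coding genes there were 260 summits (12.8%), against 23.3% of sequence. No annotated gene held 110 of them, long noncoding RNA genes 74, tRNA genes 40, rRNA genes 23 and snoRNA genes 9. Of the 184 in a long noncoding RNA or in no gene, 114 were nearest to the 3′ end of a coding gene and 70 to a start, at a median distance of 395 bp. Of the 5 highest summits outside coding genes, 3 lay in ribosomal DNA repeats on chromosome III, in regions of 7190, 7910 and 7190 bp. Repeats of this kind are present in many copies, of which the reference holds few, and reads from all copies may fall on these. The others were that at *tdh1* and one of 2840 bp on chromosome I (chrI:4007231-4010070) in the long noncoding RNA *prl53*.

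The loci of the study's ChIP primer pairs gave a further check of single sites. Both lists had a peak over the *act1* amplicon, over all 3 matched copies of the rDNA amplicon and over NCIS2, a noncentromeric site of CENP-A, whose amplicon lay within the wide region of the neighbouring *pyk1* (chrI:3844261-3846520 in replicate 1). At *mei4*, a meiotic gene, the amplicon (chrII:1473869-1473953) was met only at its end by peaks that began at 1473941 in replicate 1 and 1473921 in replicate 2. The central domains of the centromeres had no peak in either list at any matched amplicon (1 of *cc1*, 2 copies of *cc1/3* and 3 amplicons in *cc2*), and neither had the 10 matched copies of the outer repeat *dg*. NCIS1, NCIS3, NCIS4 and *spd1* had none. Of the amplicons in genes for CENP-A, its loading factors and the kinetochore (*cnp1*, *cnp3*, *mis19*, *mis20*, *scm3*, *sim4*, *mis6*, *mis15*, *mis16*, *mis17* and *mis18*), that in *cnp3* had a peak in replicate 2, at percentile 57.6, and the others had none in either list. A missing peak says that the caller's threshold was not passed there, and the depth behind it is unknown. The *cc1/3* and *dg* amplicons match several places, so reads there may also have been split or shared between copies.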

How the data were processed

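ChIP-seq peaks of Arp5-3HA (anti-HA, replicates 1 and 2) were analysed. Tools listed in the submitters' processing notes are MACS2 2.1.2, BWA 0.7.17, Trimmomatic 0.36 and deepTools (no version). The genome build, threshold, duplicate filter and the input behind each list were not given in the sources used here. For each sample there is 1 list, as deposited by the authors, with start, end and summit of each peak in base pairs and a score, a whole number of unstated scale. Peaks start and end at steps of 10 bp (1 boundary per list does not), and the columns for enrichment, p-value and q-value are 0 throughout. No read counts are given, so depth and its precision are unknown.

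Peaks on chromosomes I to III were merged (1 replicate 1 peak on a sequence named MTR was left out) at an overlap of 1 bp. Chromosome III of the ASM294v3 (RefSeq) annotation ends where the last peak ends in both lists. Summits were placed on its 5113 coding genes with UTRs, and the background is the share of sequence inside exactly 1 coding gene. With 2 lists no test was made across samples, and shares have Wilson intervals at 95% (counting error alone). The position functions were tested on simulated data. Primers of the study were matched to the reference exactly, and *sim3* and *mis15* have the same pair. The members and gene lists were chosen with earlier results of these data known. Named are the 10 highest regions, the 6 highest of each of 3 equal segments of the gene, the 5 highest outside coding genes, the 5 longest genes with a summit, the 5 with most regions, Ino80C genes, primer loci, and the highest of each gene group. Group members without a summit, or with a low one, were named after their values were seen. Alternatives were each list alone, a stricter overlap, high scores, centres, narrow regions, regions away from RNA genes and repeats, coding spans, summits in several genes and genes with isolated 3′ ends. GC classes, coding sequence alone and the omission of ribosomal protein genes were added after seeing the data. Python 3.11.15, numpy 2.4.6, scipy 1.17.1 and matplotlib 3.10.9 were used.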

Additional observations from a re-analysis of the deposited data

How the results depend on the processing

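Of 71 alternatives over the 7 summary values, 28 stayed within the bounds set around the main value and 43 moved. The bounds were the Wilson interval for shares and a fixed ratio for the number of genes. For the length ratio and the rank difference they were the spread between the single lists. That spread was narrow for the length ratio, so that small shifts counted as moved. A turn of direction could be called only for the rank difference, which stayed positive throughout. The share of merged regions found in both replicates (35.3%) was 30.6% when peaks had to share at least 0.5 of the shorter peak, 33.3% with the upper 50% of scores, 31.7% without regions over 1000 bp and 33.3% away from RNA genes and repeats. Summits inside coding genes (87.2%) were 89.3% to 90.4% with a replicate left out, 79.6% with the upper 50% of scores, 94.9% away from RNA genes and repeats and 81.3% with coding spans. The share in the 3′ part (63.5%) was 59.7% to 60.1% with a replicate left out, 66.5% with the upper 50% of scores, 66.3% with region centres, 67.9% with coding spans (50.01% of sequence) and 58.3% for isolated 3′ ends. The share within 500 bp of the 3′ end (27.4%) was 23.6% to 24.1% with a replicate left out, 33.5% with the upper 50% of scores and 46.5% with coding spans (32.7% of sequence). The number of coding genes with a summit was 2356 to 2415 with a replicate left out and 723 with the upper 50% of scores. The ratio of median lengths (1.40) was 1.52 to 1.53 with a replicate left out, 1.38 with the stricter overlap, 1.28 with the upper 50% of scores, and 1.41, 1.41, 1.42 and 1.48 with centres, narrow regions, regions away from RNA genes and coding spans. The difference in median rank between the 3′ and 5′ of 3 equal segments of the gene (7.18 percentile points) was 5.61 to 11.02 with a replicate left out, 12.1 with the stricter overlap and 15.2 with centres. Among alternatives added after seeing the data, the 3′ part held 79.1%, 75.2%, 65.6%, 55.7% and 54.6% of summits from the lowest to the highest GC class (50.7%, 45.2%, 45.1%, 44.8% and 42.9% of sequence). The last 500 bp held 61.7%, 32.4%, 23.8%, 19.6% and 30.1% (34.3%, 17.7%, 15.3%, 15.7% and 17.7% of sequence). Without ribosomal protein genes the length ratio was 1.45. The cause of these shifts was not tested. No paired analysis was possible because no result comes from a test. No read depth or input is in the lists, so the size of enrichment at a summit and the loci missed below the caller's threshold cannot be given, and the replicates share 1 strain.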

Other observations

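The highest peak of the replicate 1 list had no partner in the other replicate. It was 170 bp long, had a score of 259 and lay in the long noncoding RNA gene SPNCRNA.1099 (chrIII:46861-47030), with the nearest replicate 2 peak 860 bp away. The next peak of replicate 1 with no partner was at place 55 of its list, in SPBC17A3.05C. The highest replicate 2 peak with no partner was at place 84, in a tRNA gene (chrII:2790321-2790530), 1490 bp from the nearest replicate 1 peak.

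In genes whose upstream neighbour is divergent, 10 of 837 summits (1.19%) lay in the first 200 bp, and in genes with a tandem upstream neighbour 31 of 776 (3.99%). The share of summits in the 3′ part was 62.2% and 64.9% in these genes. Divergent and tandem genes had a summit about equally often, in 27.8% and 28.04% of cases.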
